A study of Homo sapiens with 15 samples.

Results

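The 10 genes followed here belong to the heat shock protein network and were read in all 15 libraries: HSPA1A, HSPA1B, HSPA8, DNAJB1, HSPH1, HSP90AA1, HSPD1, HSPE1, BAG3 and HSPB1. They were taken from the count table by symbol through their Ensembl identifiers, and they are 10 of its 60670 genes. All 10 were expressed highly enough to be tested. Not all of the products are cytosolic: HSPD1 and HSPE1 encode the chaperonin and co-chaperonin of the mitochondrial matrix, so the set is called the 10 heat shock genes here. The cells were HT-1080, a human fibrosarcoma line grown at 5% oxygen. Each of 5 groups had 3 libraries, labelled as biological replicates.

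One group was cycling cells in the vehicle DMSO, sampled at 6 h. The other groups were senescent cells, in which a dominant negative mutant of TRF2, a telomere-binding protein encoded by TERF2, had been expressed for 6 days to uncap telomeres. Senescent cells received DMSO for 6 h, GNF-7 for 6 h, DMSO for 24 h or GNF-7 for 24 h, with GNF-7 at 1 uM. GNF-7 is a tyrosine kinase inhibitor, and the series title concerns its activation of GCN2, a kinase of the integrated stress response. No cycling cells with GNF-7 are among these groups, so effects of GNF-7 were measured in senescent cells only. All libraries came from 1 cell line and 1 way of inducing senescence.

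Heat shock proteins are molecular chaperones. HSP70 proteins bind exposed hydrophobic stretches of client proteins in cycles driven by ATP. J-domain proteins deliver clients and stimulate ATP hydrolysis, nucleotide exchange factors release them, and HSP90 takes over late folding steps of kinases and receptors. Many of these genes are transcribed by heat shock factor 1 (HSF1), which is released from chaperones when unfolded proteins accumulate. HSF1 binds heat shock elements, which are repeats of the unit nGAAn in alternating orientation.

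The promoter stretches below are shown because they carry the heat shock elements of the HSP70, HSP90 and HSP60 members described below. They are from RefSeq on GRCh38.p14, read 5′ to 3′ on the strand of the gene. Capitals mark every match to the inverted pairs GAANNTTC and TTCNNGAA, in which N is any base and overlapping matches were allowed. HSPA1A lies at chr6:31815413-31815522 (plus strand), HSPA1B at chr6:31827609-31827718 (plus strand), HSPA8 at chr11:123062157-123062386 (minus strand), HSP90AA1 at chr14:102087095-102087154 (minus strand) and HSPD1 at chr2:197500041-197500090 (minus strand).
HSPA1A: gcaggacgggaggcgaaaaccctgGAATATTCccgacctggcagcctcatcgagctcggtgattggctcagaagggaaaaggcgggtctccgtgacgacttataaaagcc
HSPA1B: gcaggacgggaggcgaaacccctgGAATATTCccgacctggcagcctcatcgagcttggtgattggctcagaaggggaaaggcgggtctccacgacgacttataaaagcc
HSPA8: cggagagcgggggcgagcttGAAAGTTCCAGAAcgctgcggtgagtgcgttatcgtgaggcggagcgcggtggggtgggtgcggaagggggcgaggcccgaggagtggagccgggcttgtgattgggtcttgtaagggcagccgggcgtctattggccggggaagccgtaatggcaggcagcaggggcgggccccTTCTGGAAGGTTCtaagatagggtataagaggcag
HSP90AA1: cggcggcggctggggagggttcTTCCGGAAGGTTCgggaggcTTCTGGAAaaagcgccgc
HSPD1: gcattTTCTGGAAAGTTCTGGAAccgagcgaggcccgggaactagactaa

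HSPA1A and HSPA1B each had 1 inverted pair, GAATATTC, whose first base was at -106 and -105 from the start. Across the whole windows of 250 bases before and 50 after the start, these near-identical genes shared 277 of 299 aligned bases (92.6%). HSPA8 had 2 runs of 3 units, at -230 and -55, and HSP90AA1 had 1, at -88, followed by a separate pair at -68. In HSPD1 a pair of overlapping runs of 3 units began at -245 and -240. A run of 3 units means that GAANNTTC and TTCNNGAA overlap by 1 shared unit, in either order.

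At least 1 inverted pair was found in 8 of the 14 RefSeq windows of the 10 genes, covering 7 genes, against 13.5% of 34943 RefSeq promoters of the same length. Runs of 3 units were found in 3 of the 10 genes, against 0.489% of promoters. DNAJB1 had pairs in 2 of its 3 windows, and HSPB1 had 1 pair, at -182. The windows of HSPH1, BAG3 and HSPE1 held no match. An exact TATA-box match (TATAAA or TTTATA, 11.6% of promoters) was found in HSPA1A and HSPA1B. Near matches were not counted, such as TATAAG in the HSPA8 stretch above, so other members may have a TATA box too. HSPD1 and HSPE1 are transcribed away from each other, with 538 bases between the HSPE1 start and the HSPD1 start used for the stretch above. HSPD1 has another RefSeq start nearer to HSPE1, with its window at chr2:197500225-197500524. The printed HSPD1 stretch lies downstream of that start. The nearest base of the HSPD1 runs is 294 bases before the HSPE1 start, outside the HSPE1 window. The map of motif matches shows these positions. A match describes the letters only, since binding was not measured.

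**Figure D1:**
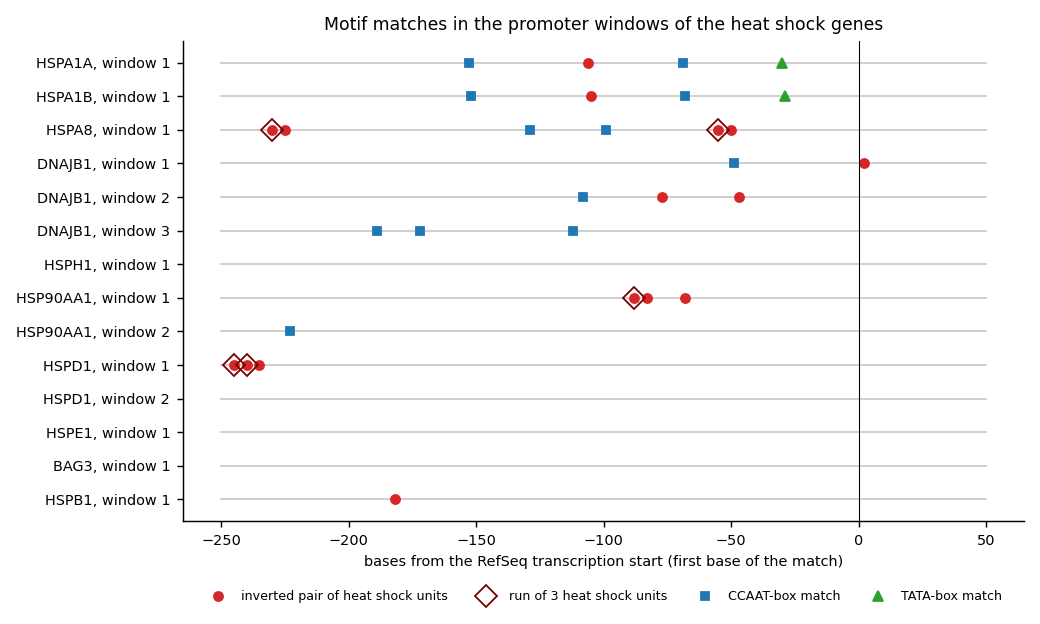
Positions of motif matches in the 14 RefSeq promoter windows of the 10 heat shock genes. The x axis gives the distance in bases from the transcription start to the first base of a match. Each grey line is a window from 250 bases before to 50 after the start. Runs of 3 heat shock units are seen in HSPA8, HSP90AA1 and HSPD1, and 1 pair each in HSPA1A and HSPA1B.

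Total counts per library ranged from 25991007 to 32323393. TERF2 served as a check of the labels for the TRF2 mutant, not of senescence itself. It rose from 58.2 ± 3.65 CPM (SD, n = 3) in cycling cells to 287 ± 8.17 CPM in senescent DMSO cells at 6 h. It was lower with GNF-7, at 222 ± 8.60 CPM at 6 h (log2 fold change -0.37, edgeR adjusted p 7.34e-12), and at 24 h it was 220.0 ± 7.26 CPM in DMSO and 132 ± 5.38 CPM with GNF-7 (-0.73, adjusted p 3.53e-24). Whether this bears on the 10 genes was not tested. CPM are counts per 1000000 counts after scaling for composition. Of 9 mesenchymal markers, 8 were detected in each group, 6 or 7 of them above a group mean of 1 CPM. Their summed level ranged from 5736 to 8350 CPM over the 15 libraries, most of it in VIM, FN1 and CD44. THY1 was at 0 in all libraries. The mesenchymal sum was lowest with GNF-7 at 24 h, at 5736 to 6105 CPM against 7611 to 8350 CPM in DMSO at 24 h. The summed epithelial markers were at 3.89 to 5.51 CPM with GNF-7 at 24 h against 0.988 to 1.12 CPM in DMSO at 24 h. ESRP1 (2.65 against 0.159 CPM as group means) and CLDN4 (1.75 against 0.865 CPM) made up this difference. EPCAM, CDH1 and KRT5 were at most at 0.078 CPM in these groups. The endothelial sum was at 1.79 to 2.37 CPM with GNF-7 at 24 h against 0.503 to 1.05 CPM in DMSO at 24 h. The blood sum was at most 0.754 CPM in any library. The part of these markers in the results was not tested. The share of counts in mitochondrially encoded genes differed between the groups, from 4.32 ± 0.637% in cycling cells and 11.7 ± 0.638% in senescent DMSO cells at 6 h to 14.1 ± 1.08% with GNF-7. At 24 h it was 16.9 ± 1.80% in DMSO and 23.3 ± 0.767% with GNF-7. With these genes left out of the scaling, the calls of the 10 heat shock genes were the same in each comparison except that between the DMSO groups, where BAG3 was no longer called.

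The 10 heat shock genes together took a smaller share of the counts in senescent than in cycling cells, and a smaller share again with GNF-7. Their share was 0.716 ± 0.0182% of counts (SD, n = 3) in cycling cells and 0.451 ± 0.0122% in senescent DMSO cells at 6 h. With GNF-7 it was 0.307 ± 0.00723% at 6 h and 0.235 ± 0.00868% at 24 h, against 0.385 ± 0.00604% in DMSO at 24 h. The 3 libraries of each group did not overlap with those of any other. Most of the sum was HSPA8 and HSP90AA1 in each group. The totals include mitochondrially encoded genes, whose share differed between the groups. How far this moved the share of the 10 genes was not tested. In RNA from whole cultures, less RNA per cell and fewer cells with that RNA cannot be told apart.

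Levels of the 10 genes spanned a wide range on a scale per length (RPKM, which is CPM divided by the annotated exon length in kilobases). In senescent DMSO cells at 6 h HSPA8 was highest at 447 RPKM, followed by HSP90AA1 at 233, HSPD1 at 83.8 and BAG3 at 59.1. DNAJB1 stood at 35.1, HSPH1 at 24.0 and HSPE1 at 23.5 RPKM. The libraries of HSPH1 and HSPE1 overlapped and their order is not resolved. The stress-inducible HSPA1B (7.94 RPKM) and HSPA1A (6.64 RPKM) followed, and HSPB1 was lowest at 1.02 RPKM. HSPA1A and HSPA1B share most of their sequence, and their levels are too low if shared reads were dropped in counting. The same limit holds for HSPE1, whose exons overlap those of HSPE1-MOB4 on the same strand. The first 4 places were the same in all 5 groups. HSPB1 had the lowest mean in each group, but with GNF-7 at 24 h its libraries (2.49 to 3.78 RPKM) overlapped with those of HSPA1A (3.39 to 3.86 RPKM).

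The 3 main contrasts were read from 1 model of all 15 libraries, by the edgeR quasi-likelihood test with Benjamini-Hochberg adjustment over 18563 genes, and calls were made below an adjusted p of 0.05. In senescent against cycling cells 9 of the 10 heat shock genes were lower and 1, HSPB1, was higher. Of all genes tested, 34.4% were called lower and 35.6% higher in that contrast. With GNF-7 at 6 h 9 were lower and 1, again HSPB1, was higher, against 21.4% of all genes lower and 17.9% higher. With GNF-7 at 24 h 8 were lower, HSPB1 was higher and HSPD1 was not called, against 29.7% lower and 29.3% higher.

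The median log2 fold change of the 10 genes was -0.65 in senescence, -0.58 with GNF-7 at 6 h and -0.54 with GNF-7 at 24 h. Over all genes tested the medians were 0.06, 0.01 and 0.04. The senescence contrast and the GNF-7 contrast at 6 h share the senescent DMSO libraries of 6 h, so their results are not independent of each other. The 2 GNF-7 contrasts share no library.

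**Figure D2:**
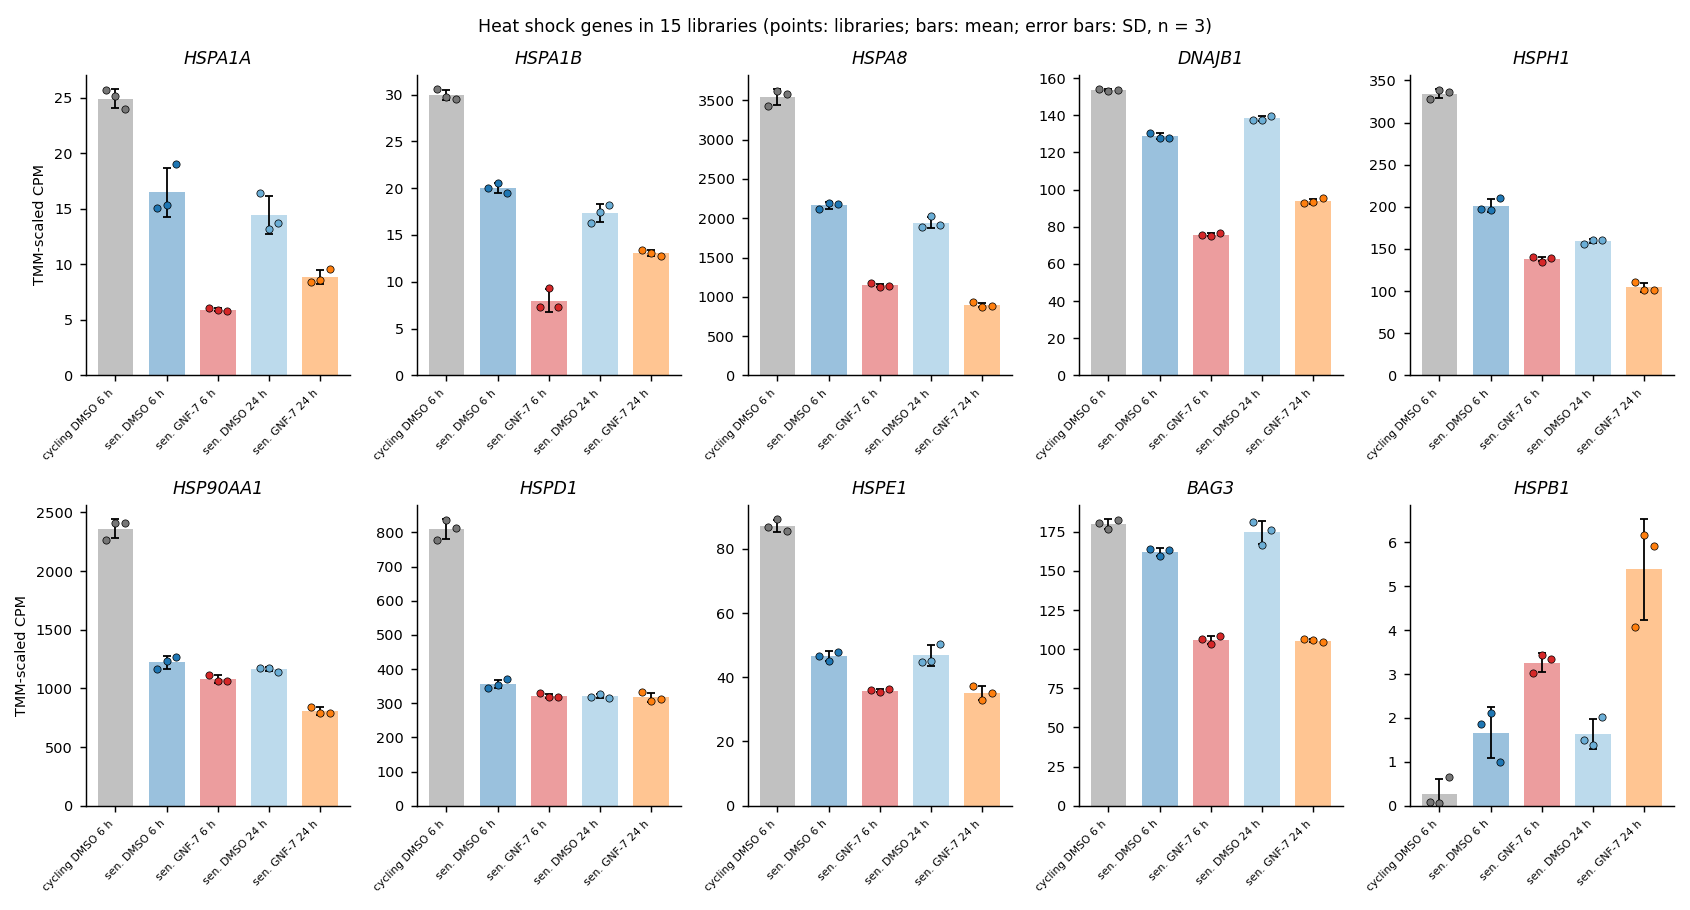
Levels of the 10 heat shock genes in each library, as TMM-scaled CPM on a linear axis from 0. Points are libraries, bars are group means and error bars are SD (n = 3), and sen. stands for senescent. For 8 of the genes every GNF-7 library lies below every DMSO library of the same time, while HSPB1 shows the opposite order and HSPD1 overlaps at 24 h.

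HSPA1A and HSPA1B encode the same stress-inducible cytosolic HSP70 from neighbouring genes on chromosome 6 (GRCh38, HSPA1A at chr6:31815464-31817946 and HSPA1B at chr6:31827735-31830255, both plus strand). HSPA1A measured 25.7, 25.1 and 24.0 CPM in cycling cells and 15.1, 15.3 and 19.0 CPM in senescent DMSO cells at 6 h. It measured 6.06, 5.93 and 5.76 CPM with GNF-7 at 6 h. The groups were ordered cycling, DMSO, GNF-7, with no overlap. At 24 h it measured 16.4, 13.2 and 13.7 CPM in DMSO and 8.42, 8.57 and 9.60 CPM with GNF-7, again apart. GNF-7 lowered HSPA1A 2.78-fold at 6 h (log2 fold change -1.48, SE 0.10, edgeR adjusted p 4.95e-19) and 1.63-fold at 24 h (-0.71, SE 0.10, adjusted p 8.94e-09). In senescent against cycling cells the value was -0.60 (SE 0.09, adjusted p 2.90e-08).

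HSPA1B followed the same order of groups. It measured 30.6, 29.8 and 29.5 CPM in cycling cells, 20.03, 20.5 and 19.5 CPM in senescent DMSO cells at 6 h and 7.29, 9.36 and 7.35 CPM with GNF-7 at 6 h. At 24 h the DMSO libraries were at 16.3, 17.5 and 18.2 CPM and the GNF-7 libraries at 13.4, 13.1 and 12.7 CPM. The gap between the treatments was thus narrower at 24 h, without overlap at either time. Its log2 fold change with GNF-7 was -1.33 (SE 0.09, edgeR adjusted p 5.87e-20) at 6 h and -0.41 (SE 0.08, adjusted p 3.09e-05) at 24 h, and -0.58 (SE 0.08, adjusted p 1.51e-09) in senescence.

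Reads of the 2 genes are hard to separate. Their transcripts were identical at 94.5% of 2403 aligned bases, and 28.7% of the stretches of 50 bases in HSPA1A and 26.5% in HSPA1B occurred in no other annotated gene. HSPA1B also overlaps AL671762.1 on the same strand. The counts of both genes were therefore added, which does not recover reads that counting may have dropped. The sum was 54.9 ± 1.40 CPM (SD, n = 3) in cycling cells, 36.5 ± 1.80 in senescent DMSO cells at 6 h, 13.9 ± 1.19 with GNF-7 at 6 h, 31.8 ± 1.03 in DMSO at 24 h and 21.9 ± 0.359 with GNF-7 at 24 h. On the sum GNF-7 gave -1.39 (SE 0.07, edgeR adjusted p 2.14e-26) at 6 h and -0.54 (SE 0.07, adjusted p 1.26e-10) at 24 h. Senescence gave -0.59 (SE 0.06, adjusted p 2.19e-13).

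HSPA8 (chr11:123057489-123063230, minus strand) encodes HSC70, the constitutive cytosolic HSP70 that also uncoats clathrin vesicles and feeds chaperone-mediated autophagy. It measured 3422, 3616 and 3587 CPM in cycling cells and 2118, 2200 and 2178 CPM in senescent DMSO cells at 6 h. With GNF-7 at 6 h it measured 1170, 1128 and 1140 CPM. Levels at 24 h were 1892, 2025 and 1910 CPM in DMSO and 928, 873 and 885 CPM with GNF-7. No 2 of the 5 groups overlapped, and GNF-7 at 24 h was lowest. HSPA8 fell 1.64-fold in senescence (log2 fold change -0.71, SE 0.03, edgeR adjusted p 2.76e-28), 1.89-fold with GNF-7 at 6 h (-0.92, SE 0.03, adjusted p 7.16e-33) and 2.17-fold at 24 h (-1.12, SE 0.03, adjusted p 1.12e-37). Small nucleolar RNAs lie within the gene on the same strand.

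HSPA8 and the HSPA1 pair thus stood in different proportions at the 2 times. The RPKM ratio of HSPA8 to HSPA1A plus HSPA1B was 30.7 ± 1.34 (SD, n = 3) in senescent DMSO cells at 6 h and 42.8 ± 4.001 with GNF-7 at 6 h. At 24 h it was 31.6 ± 2.22 in DMSO and 21.1 ± 0.801 with GNF-7. The ratio was higher than in DMSO in each GNF-7 library at 6 h and lower in each at 24 h. Its size is uncertain, since 91.8% of the stretches of 50 bases in HSPA8 occurred in no other annotated gene. The values for HSPA1A and HSPA1B were 28.7% and 26.5%. The ratio is too high if shared reads were dropped, and how they were counted is not given in the sources used here.

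DNAJB1 (chr19:14514770-14529770, minus strand) encodes HSP40, a J-domain protein that stimulates the ATPase of HSP70 and takes part in returning HSF1 to rest. It measured 154, 153 and 154 CPM in cycling cells, 131, 128 and 128 CPM in senescent DMSO cells at 6 h and 75.7, 74.8 and 76.6 CPM with GNF-7. The 24 h libraries stood at 137.6, 138 and 139.7 CPM in DMSO and 92.9, 93.1 and 95.3 CPM with GNF-7. The 5 groups were all apart, with both GNF-7 groups lowest. The fall with GNF-7 was 1.70-fold at 6 h (log2 fold change -0.77, SE 0.04, edgeR adjusted p 4.65e-25) and 1.48-fold at 24 h (-0.56, SE 0.04, adjusted p 1.05e-19). In senescence the value was -0.26 (SE 0.04, adjusted p 2.82e-08). DNAJB1 overlaps exons of TECR on the opposite strand, and whether counting used strand is not given in the sources used here.

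BAG3 (chr10:119651370-119677819, plus strand) is a nucleotide exchange factor of HSP70 that directs damaged proteins to autophagy together with small heat shock proteins. It measured 181, 177 and 183 CPM in cycling cells, 164, 159.5 and 163 CPM in senescent DMSO cells at 6 h and 106, 104 and 108 CPM with GNF-7. At 24 h DMSO libraries were at 181, 167 and 176 CPM and GNF-7 libraries at 106, 106 and 105 CPM. The DMSO libraries of 24 h overlapped with the cycling libraries, and both GNF-7 groups lay well below. GNF-7 lowered BAG3 1.53-fold at 6 h (log2 fold change -0.61, SE 0.04, edgeR adjusted p 7.40e-21) and 1.66-fold at 24 h (-0.73, SE 0.04, adjusted p 6.32e-25). The senescence value of BAG3 was small, at -0.15 (SE 0.04, adjusted p 4.42e-04). It did not hold under each scaling: it was -0.02 (adjusted p 0.705) with total counts and 4.52e-04 (adjusted p 0.991) when genes needed a mean of 5 CPM to be tested.

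HSPH1 (chr13:31134974-31162388, minus strand) encodes HSP105, an HSP110 protein that exchanges nucleotides on HSP70 and helps it dissolve aggregates. It measured 328, 339 and 336 CPM in cycling cells, 197, 196 and 210.2 CPM in senescent DMSO cells at 6 h and 140, 135 and 139 CPM with GNF-7. The later libraries held 156, 161 and 161 CPM in DMSO and 111, 101 and 102 CPM with GNF-7. All 5 groups were apart. HSPH1 fell in senescence (log2 fold change -0.73, SE 0.04, edgeR adjusted p 4.94e-26), with GNF-7 at 6 h (-0.54, SE 0.04, adjusted p 1.26e-18) and at 24 h (-0.61, SE 0.04, adjusted p 7.29e-21).

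HSP90AA1 (chr14:102080738-102139699, minus strand) encodes the stress-inducible cytosolic HSP90 alpha, which matures kinases, steroid receptors and other signalling clients. It measured 2268, 2410 and 2407 CPM in cycling cells and 1167, 1230 and 1271 CPM in senescent DMSO cells at 6 h. With GNF-7 at 6 h it measured 1116, 1060 and 1062 CPM. By 24 h the level was 1170, 1178 and 1143 CPM in DMSO and 844, 787 and 791 CPM with GNF-7. The DMSO groups of 6 h and 24 h overlapped, and the GNF-7 groups lay just below them at 6 h and further below at 24 h. The senescence change was 1.93-fold (log2 fold change -0.95, SE 0.03, edgeR adjusted p 1.05e-33). GNF-7 gave -0.18 (SE 0.03, adjusted p 2.01e-05) at 6 h and -0.53 (SE 0.03, adjusted p 9.08e-21) at 24 h.

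HSP90AB1, the constitutive cytosolic HSP90 beta, moved the same way in each of the 3 contrasts (log2 fold changes -0.81, -0.27 and -0.61). The RPKM ratio of HSP90AA1 to HSP90AB1 was 0.519 ± 0.00179 (SD, n = 3) in cycling cells and between 0.472 and 0.509 as group means in the senescent groups.

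HSPD1 and HSPE1 encode HSP60 and HSP10, which form the folding chamber of the mitochondrial matrix, and lie head to head on chromosome 2 (HSPD1 at chr2:197486581-197516737, minus strand, HSPE1 at chr2:197499994-197503457, plus strand). HSPD1 measured 779, 837 and 812 CPM in cycling cells, 345, 352 and 369 CPM in senescent DMSO cells at 6 h and 329, 319 and 319 CPM with GNF-7. The 24 h libraries measured 319, 327 and 316 CPM in DMSO and 333, 307 and 313 CPM with GNF-7. Cycling cells stood far above all senescent groups, and the GNF-7 libraries of 6 h overlapped with both groups of 24 h, which also overlapped with each other. HSPD1 had the largest fall of the 10 genes in senescence, 2.28-fold (log2 fold change -1.19, SE 0.04, edgeR adjusted p 7.10e-38). Its GNF-7 value was -0.14 (SE 0.04, adjusted p 9.70e-04) at 6 h. At 24 h it was -0.02 (95% interval -0.09 to 0.06, adjusted p 0.735), and it was 0.09 (adjusted p 0.0227) when genes needed a mean of 5 CPM.

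HSPE1 measured 86.8, 89.3 and 85.7 CPM in cycling cells, 46.8, 44.9 and 47.9 CPM in senescent DMSO cells at 6 h and 36.0, 35.3 and 36.2 CPM with GNF-7. Levels at 24 h were 44.7, 45.2 and 50.5 CPM in DMSO and 37.4, 32.9 and 35.2 CPM with GNF-7. Both GNF-7 groups lay below both DMSO groups, which overlapped with each other. HSPE1 fell in senescence (log2 fold change -0.91, SE 0.05, edgeR adjusted p 9.56e-24), with GNF-7 at 6 h (-0.38, SE 0.06, adjusted p 7.21e-08) and at 24 h (-0.41, SE 0.06, adjusted p 3.27e-09). The RPKM ratio of HSPD1 to HSPE1 was 3.56 ± 0.109 in senescent DMSO cells at 6 h and 4.19 ± 0.081 with GNF-7, and 3.20 ± 0.250 in DMSO and 4.21 ± 0.114 with GNF-7 at 24 h (SD, n = 3). GNF-7 libraries were above DMSO libraries at both times. The annotated exons of the 2 genes overlap on opposite strands. HSPE1 also shares exons with HSPE1-MOB4 on the same strand. If shared reads were dropped in counting, the HSPE1 level is too low, which bears on the size of the ratio. Pseudogenes named after them number 18 for HSPD1 and 26 for HSPE1, and together held at most 0.478% and 1.35% of the parent's counts. Such low counts cannot show whether reads shared with the parents were dropped. Of the stretches of 50 bases, 81.6% in HSPD1 and 77.3% in HSPE1 occurred in no other annotated gene.

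HSPB1 (chr7:76302544-76304295, plus strand) encodes HSP27, an oligomeric small heat shock protein that holds unfolding clients without ATP. It was the one member that rose. The cycling libraries held 2, 2 and 20 counts, the senescent DMSO libraries of 6 h 56, 67 and 29, and the GNF-7 libraries of 6 h 93, 100 and 105. At 24 h there were 47, 39 and 52 counts in DMSO and 122, 190 and 178 with GNF-7. As levels these were 0.267 ± 0.334 CPM (SD, n = 3), 1.66 ± 0.580, 3.26 ± 0.218, 1.63 ± 0.338 and 5.39 ± 1.14 CPM in the same order. GNF-7 libraries were above DMSO libraries at both times, without overlap.

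With GNF-7 HSPB1 was higher by 0.96 (log2 fold change, SE 0.29, edgeR adjusted p 0.00969) at 6 h and by 1.73 (SE 0.29, adjusted p 8.08e-06) at 24 h. DESeq2 did not call it at 6 h (0.98, adjusted p 0.0735). The senescence value was 2.55 (SE 0.44, adjusted p 1.09e-05). Cycling replicate 3 stood apart from the other cycling libraries, and without it the value was 4.41. Counts of its 2 pseudogenes ranged from 0 to 300% of those of HSPB1, the upper end being reached where HSPB1 held few counts. Intervals and standard errors at such levels rest on few reads, which are not independent molecules.

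**Figure D3:**
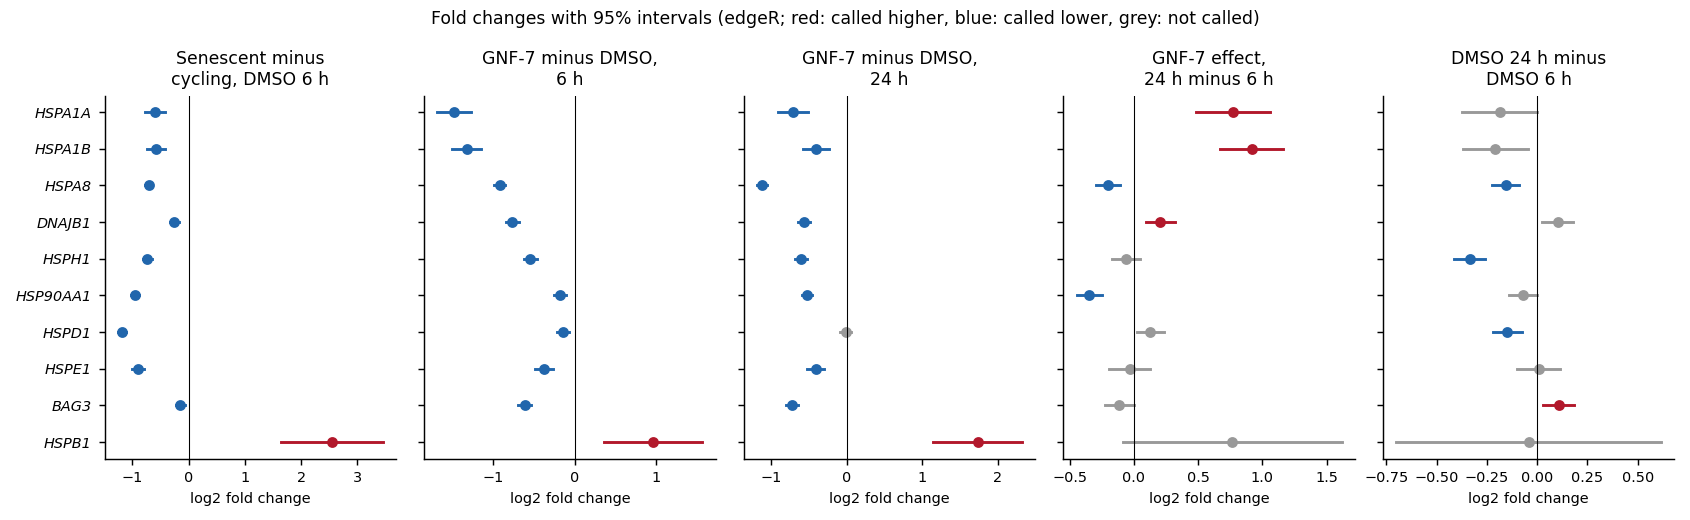
Log2 fold changes of the 10 heat shock genes in 5 contrasts of the edgeR model. Points are estimates, lines are 95% intervals, and colour gives the call at an adjusted p under 0.05. In senescence and with GNF-7 at 6 h every gene but HSPB1 is called lower, BAG3 in senescence only under part of the scalings. HSPD1 is not called with GNF-7 at 24 h.

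Effects of GNF-7 at the 2 times were then compared with each other. The effect on HSPA1A, HSPA1B and DNAJB1 was smaller at 24 h, and the effect on HSPA8 and HSP90AA1 was larger. By the edgeR interaction test 3 of the 10 genes were called higher (a less negative effect at 24 h) and 2 lower, against 12.8% of all genes higher and 18.0% lower. The differences of the log2 fold changes were 0.77 (SE 0.14, adjusted p 1.68e-05) for HSPA1A, 0.92 (SE 0.12, adjusted p 9.83e-09) for HSPA1B and 0.21 (SE 0.06, adjusted p 0.00273) for DNAJB1. They were -0.20 (SE 0.05, adjusted p 5.59e-04) for HSPA8 and -0.35 (SE 0.05, adjusted p 3.69e-08) for HSP90AA1. For HSPA1A and HSPA1B summed the difference was 0.85 (SE 0.09, adjusted p 2.99e-11).

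For the other 5 genes the difference did not pass the threshold. The 95% interval ran from -0.17 to 0.05 for HSPH1, from -0.19 to 0.12 for HSPE1, from -0.22 to -0.003 for BAG3 and from -0.08 to 1.62 for HSPB1. For HSPD1 it ran from 0.03 to 0.23, with an adjusted p of 0.0506 by edgeR.

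**Figure D4:**
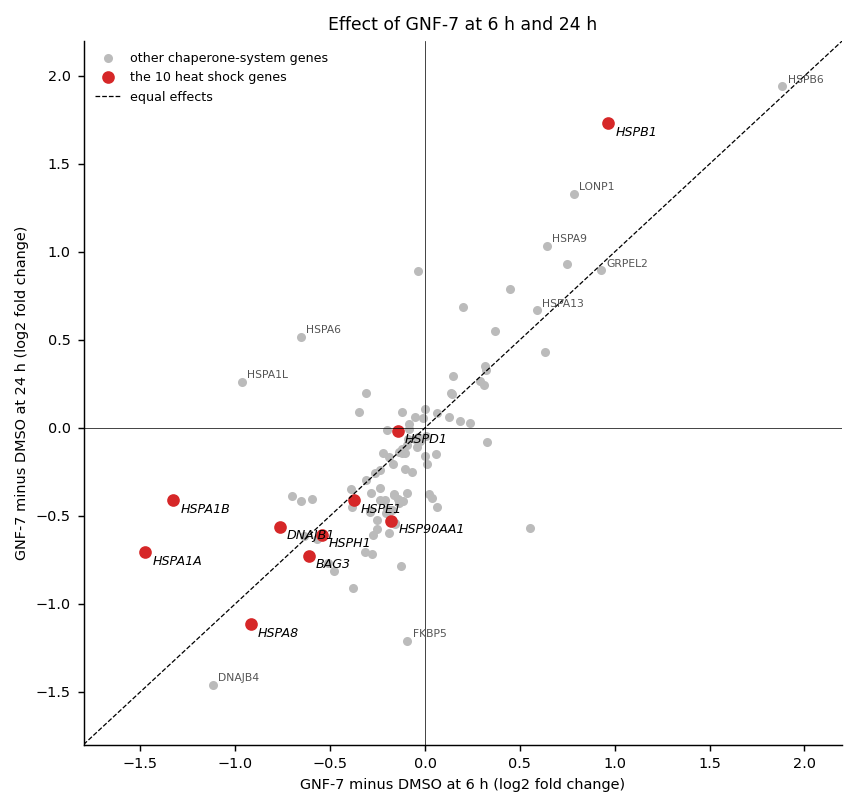
Log2 fold change with GNF-7 at 24 h (y axis) against that at 6 h (x axis) for the 10 heat shock genes (red) and the other tested genes of the chaperone system (grey). The dashed line marks equal effects. HSPA1A and HSPA1B lie above the line and HSPA8 and HSP90AA1 below it, with HSPA1L and HSPA6 furthest above among the HSP70 genes.

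Between the 2 DMSO groups of senescent cells the 10 genes differed little. HSPH1 (log2 fold change -0.34, SE 0.04), HSPA8 (-0.16, SE 0.03) and HSPD1 (-0.15, SE 0.04) were lower at 24 h and BAG3 was higher (0.11, SE 0.04, edgeR adjusted p 0.0425). Thus 3 of the 10 were called lower and 1 higher, against 9.29% and 9.26% of all genes. This contrast depended on scaling: of all genes called, 49.9% were higher with TMM scaling and 12.5% with total counts, under which BAG3 was at -0.004 and 6 of the 10 genes were called lower. Total counts moved the median of all genes to -0.10 in this contrast and to 0.19 in senescence.

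The members differed among themselves in their profile over the 15 libraries. The measure was the root mean square difference of log2 CPM after each gene was centred on its own mean. It was not scaled, so genes that varied little lie close more easily. The root mean square of a gene around its own mean was smallest for BAG3 (0.3485) and DNAJB1 (0.380) and largest for HSPB1 (1.62). DNAJB1 and BAG3 were the closest pair (0.111), followed by HSPH1 and HSP90AA1 (0.133) and by HSP90AA1 and HSPE1 (0.142). HSPD1 and HSPE1 differed by 0.177 and HSPA1A and HSPA1B by 0.187. Low counts add to the last value, since HSPA1A held 173 to 735 counts per library.

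Among 7777 other genes with a mean of at least 20 CPM, the nearest profiles to HSP90AA1 were GSPT1 (0.0353), CCT8 (0.0375) and DIAPH1 (0.0410). CCT8 is a subunit of the cytosolic chaperonin. HSPE1 was nearest to FKBP4 (0.0675), a co-chaperone of HSP90, then to ADISSP (0.0712) and PSMA3 (0.0745). BAG3 was nearest to PGM1 (0.0613), then to SERPINH1 (0.0632), the collagen chaperone HSP47, and SSR2 (0.0675). DNAJB1 was nearest to TSC22D2 (0.0501), HSPA8 to RBM12 (0.0709), HSPH1 to HCFC1 (0.0709) and HSPD1 to PLXNA2 (0.0563). The nearest genes to HSPA1A and HSPA1B, MACIR (0.214) and WNT7B (0.212), were less close. No gene came within 0.568 of HSPB1.

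HSF1 RNA was slightly higher with GNF-7. It stood at 110.3, 115, 127, 113 and 129 CPM as group means in cycling, DMSO 6 h, GNF-7 6 h, DMSO 24 h and GNF-7 24 h. Its log2 fold change was 0.06 (edgeR adjusted p 0.227) in senescence, 0.14 (adjusted p 0.00566) with GNF-7 at 6 h and 0.19 (adjusted p 1.19e-04) at 24 h. HSF2, another heat shock factor, fell in senescence (-0.79, adjusted p 1.04e-11) and was not called with GNF-7. HSF4 rose in senescence (1.24, adjusted p 1.57e-14) and fell with GNF-7 at 6 h (-0.31, adjusted p 0.0142). At 24 h HSF4 was at 0.20 (adjusted p 0.0836), and the difference between the times was 0.51 (adjusted p 0.00462). HSBP1, which binds HSF1 trimers, fell in senescence (-0.50) and with GNF-7 at 6 h (-0.20) and 24 h (-0.46). RNA levels do not report the activity of HSF1, which was not measured. Of the 7 genes tested in this list, 3 rose and 3 fell in senescence, 2 rose and 3 fell with GNF-7 at 6 h, and 2 rose and 2 fell at 24 h. Over all genes tested, 35.6% rose and 34.4% fell in senescence, and 17.9% rose and 21.4% fell with GNF-7 at 6 h. At 24 h 29.3% rose and 29.7% fell. The counts of this list and of the lists below are to be read beside these shares.

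Of 8 other HSP70 genes tested, 1 rose and 5 fell in senescence and with GNF-7 at 6 h, and 3 rose and 3 fell with GNF-7 at 24 h. HSPA1L, which neighbours HSPA1A, and the strictly inducible HSPA6 were both lower with GNF-7 at 6 h (log2 fold changes -0.97, edgeR adjusted p 9.99e-04, and -0.66, adjusted p 0.00876). At 24 h HSPA6 was higher (0.52, adjusted p 0.0228) and HSPA1L was at 0.26 (adjusted p 0.357). The difference between the times was 1.23 (adjusted p 0.00372) for HSPA1L and 1.18 (adjusted p 9.62e-04) for HSPA6. Both were near 1 to 3 CPM. In annotated transcripts neither shared a stretch of 100 bases with HSPA1A or HSPA1B. Whether shorter stretches led to shared reads was not tested. HSPA4 and HSPA4L, of the HSP110 group like HSPH1, were lower with GNF-7 at 24 h (-0.37 and -0.78). HSPA13, a microsomal member, rose at both times (0.59 and 0.67).

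Among 15 J-domain genes tested, 2 rose and 10 fell in senescence, 3 rose and 7 fell with GNF-7 at 6 h, and 2 rose and 8 fell at 24 h. When genes needed a mean of 5 CPM, 5 rose and 5 fell at 6 h, and 4 rose and 6 fell at 24 h. DNAJA1, a cytosolic partner of HSC70, fell in each of the 3 contrasts (log2 fold changes -0.58, -0.64 and -0.61). DNAJB4, a relative of DNAJB1, rose in senescence (0.93) and fell with GNF-7 at 6 h (-1.12) and at 24 h (-1.46). DNAJB2, a J-domain protein enriched in neurons, rose in all of them (1.48, 0.29 and 0.27).

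Of 9 exchange and release factors of HSP70 tested besides BAG3 and HSPH1, 7 fell in senescence, 3 fell and 1 rose with GNF-7 at 6 h, and 4 fell at 24 h. STIP1, which links HSP70 to HSP90, fell in all 3 contrasts (log2 fold changes -0.95, -0.57 and -0.63). BAG1 was the gene that rose with GNF-7 at 6 h (0.32), and it was at -0.08 (edgeR adjusted p 0.182) at 24 h.

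Of 13 genes of the HSP90 system tested, 10 fell and 1 rose in senescence, 7 fell with GNF-7 at 6 h and 10 fell at 24 h. CACYBP (-1.79), FKBP5 (-1.90) and PTGES3 (-1.26), the p23 co-chaperone, had the largest falls in senescence. CDC37, which loads kinases onto HSP90, was the one that rose there (0.09). With GNF-7 at 24 h FKBP5, a target of steroid receptors as well as a co-chaperone, fell by 1.21 on the log2 scale, against -0.09 (edgeR adjusted p 0.31) at 6 h, and the difference was -1.12 (adjusted p 1.79e-13).

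Another list held 14 genes of the cytosolic chaperonin TRiC, which folds actin and tubulin, and of its partner prefoldin. Of these 13 fell in senescence, 11 fell and 2 rose with GNF-7 at 6 h, and 11 fell and 1 rose at 24 h. Their medians were -0.88, -0.16 and -0.48. All 8 TRiC subunits were called lower in all 3 contrasts, also with 4 other choices of scaling or filter, for example CCT2 (-0.96, -0.32 and -0.71) and TCP1 (-1.11, -0.29 and -0.47). PFDN2 was an exception with GNF-7, at 0.37 and 0.55.

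Of 16 mitochondrial chaperones and proteases tested, 13 fell and 1 rose in senescence, 5 fell and 5 rose with GNF-7 at 6 h, and 10 fell and 6 rose at 24 h. Over all genes tested, 21.4% fell and 17.9% rose at 6 h and 29.7% fell and 29.3% rose at 24 h. When genes needed a mean of 5 CPM, 7 of the 16 fell and 6 rose at 24 h. HSPA9, the mitochondrial HSP70, fell in senescence (log2 fold change -0.66) and rose with GNF-7 at 6 h (0.64) and 24 h (1.03). The matrix protease LONP1 did likewise (-1.17, 0.78 and 1.33), as did GRPEL2, a nucleotide exchange factor of HSPA9 (-1.08, 0.93 and 0.90). HSPD1 and HSPE1 were not among the genes called higher with GNF-7, apart from HSPD1 at 24 h when genes needed a mean of 5 CPM.

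Only 2 of 9 other small heat shock protein genes were expressed highly enough to test. HSPB6 fell in senescence (log2 fold change -1.25) and rose with GNF-7 at 6 h (1.88, edgeR adjusted p 3.59e-07) and 24 h (1.94, adjusted p 2.72e-09), from 0.526 to 1.96 CPM and from 0.920 to 3.58 CPM. HSPB8, the partner of BAG3 in selective autophagy, rose in senescence (1.08) and fell with GNF-7 at 24 h (-0.40), while at 6 h it was at 0.04 (adjusted p 0.673).

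In senescence 7 of the 12 HSF1 targets outside the chaperone families rose and 4 fell, against 35.6% and 34.4% of all genes tested. With GNF-7 at 6 h 4 rose and 5 fell, against 17.9% and 21.4% of all genes. At 24 h 3 rose and 5 fell, against 29.3% and 29.7%. When genes needed a mean of 5 CPM, which left 11, the counts were 7 and 2 in senescence, 4 and 4 at 6 h, and 5 and 4 at 24 h. SERPINH1 fell with GNF-7 (log2 fold changes -0.51 and -0.77), as did JMJD6 (-0.65 and -0.41). HMOX1 (0.75 and 0.93), which degrades haem, and SQSTM1 (0.20 and 0.69), the autophagy receptor p62, rose. HMOX1 and SQSTM1 are also known targets of the oxidative stress factor NRF2. ZFAND2A of the same list was also higher with GNF-7 as group means, at 11.96 against 8.763 CPM in DMSO at 6 h. At 24 h ZFAND2A was at 13.78 CPM with GNF-7 against 8.006 CPM in DMSO. Whether HSF1 or NRF2 had a part in these changes was not tested.

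**Figure D5:**
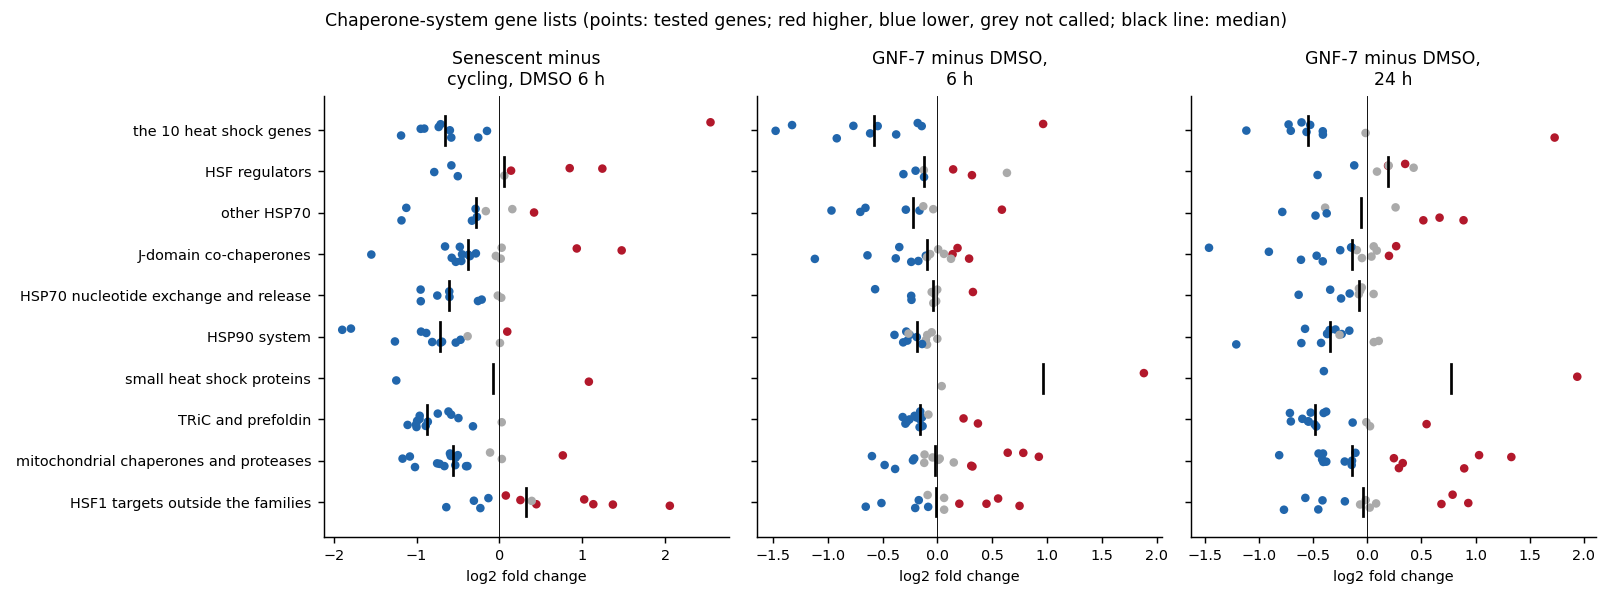
Log2 fold changes of the 10 heat shock genes and of 9 other lists of the chaperone system in 3 contrasts. Points are tested genes coloured by their call, with random vertical scatter, and black lines are medians. Most points lie left of 0 for the 10 genes, the HSP90 system and TRiC and prefoldin, while mitochondrial chaperones spread to both sides with GNF-7.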

How the data were processed

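RNA of 15 HT-1080 libraries was sequenced after a stranded mRNA protocol, per the labels' protocols. The deposited table holds raw read counts per Ensembl gene, not normalized. Per the submitters' processing notes, bcl2fastq 2.20.0.422, STAR 2.7.9a, featureCounts 1.5.1 and GRCh38 were used. Settings, annotation release and use of strand are not given in the sources used here. After 3 broken lines were left out, 60670 genes were kept, of which 60400 were named by identifier and 58452 were placed on GRCh38 with GENCODE 29. RPKM values used the summed exon length of that annotation.

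Counts were fitted in R 4.3.3 with edgeR 4.0.16 (TMM scaling, expression filter, robust quasi-likelihood, all 15 libraries, 1 term per group), with Benjamini-Hochberg adjustment over 18563 genes. limma 3.58.1 (voom) and DESeq2 1.42.0 were alternatives, as were RLE scaling, total counts, mitochondrially encoded genes left out, no filter on low counts, a minimum mean of 5 CPM, only the groups compared, a replicate block, HSPA1A and HSPA1B summed, and leaving out each library. By chi-square tests, libraries of a group all differed by more than sampling noise. They are labelled as biological replicates, and the p-values measure the spread between them. On simulated counts for GNF-7 at 6 h (17810 genes, 200 changed 2-fold) edgeR recovered 86.5% with 7 false calls. The simulation gave all genes the same dispersion, no batch, and changes in random directions. In the data 7286 of 18563 genes were called in this contrast, so the simulated rates need not hold there.

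The 10 genes, the other lists and the markers were chosen with earlier results of these data known. Named were all 10 members, TERF2, HSF1, HSF2 and HSBP1, from each list and contrast at most 3 called genes with the smallest p or genes moving against the others of the list, and for each member the 3 nearest profiles. Some genes that meet the rule are not named. Promoter sequences are RefSeq windows of GRCh38.p14.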

Additional observations from a re-analysis of the deposited data

Results flagged for a closer look

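The effect of GNF-7 against DMSO in senescent cells differed between 24 h and 6 h for 5 of the 10 heat shock genes, by the edgeR interaction test with adjustment over 18563 genes. The difference of the log2 fold changes (24 h minus 6 h) was 0.77 for HSPA1A (adjusted p 1.68e-05) and 0.92 for HSPA1B (adjusted p 9.83e-09), the stress-inducible HSP70 genes. It was 0.21 for DNAJB1 (adjusted p 0.00273), their J-domain partner. It was -0.20 for HSPA8 (adjusted p 5.59e-04), the constitutive HSP70, and -0.35 for HSP90AA1 (adjusted p 3.69e-08). All 3 GNF-7 libraries lay below all 3 DMSO libraries at each time for each of these 5 genes.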

How the results depend on the processing

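Of 1195 fold changes of the members under an alternative setting, 1139 kept their direction and their side of the threshold, and of 375 counts of called members 353 stayed within 1.5-fold. Exceptions follow, and the cause was not tested unless stated. HSPB1 does not reach a mean of 5 CPM, so with that minimum 0 members were called higher in senescence and with GNF-7 at 6 h. DESeq2 also called 0 higher at 6 h. BAG3 in senescence stood at 4.52e-04 with a minimum of 5 CPM, and HSPE1 in the difference between the GNF-7 effects at 0.013. HSPD1 with GNF-7 at 24 h stood at 0.013 with total counts and at 0.085 (edgeR adjusted p 0.0227) with a minimum of 5 CPM. Leaving out 1 library gave it -0.054 to 0.0069, and gave HSPE1 -0.083 to 0.020 in the difference. HSPD1 passed the threshold in that difference with total counts (0.14, adjusted p 0.0330), with a minimum of 5 CPM (0.18), with limma voom (0.13) and without 4 of the libraries in turn. BAG3 did so without DMSO 24 h replicate 2 (-0.15), and HSPB1 without DMSO 6 h replicate 3 (1.02) and with only the groups compared (0.76).

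The comparison of the DMSO groups moved most. Members called higher numbered 0 with total counts, mitochondrially encoded genes left out or no filter, and 2 with a minimum of 5 CPM, DESeq2, limma voom, only the groups compared or the replicate block, with BAG3 joined by DNAJB1 in these. Leaving out 1 library gave 0 to 2. The BAG3 call was lost without cycling replicate 3, any DMSO library of 6 h, GNF-7 6 h replicate 2, or DMSO 24 h replicate 1 or 3. With total counts 6 members were called lower, and the values were -0.0078 for DNAJB1, -0.0043 for BAG3 and -0.104 for HSPE1. HSPA1B was also called lower with DESeq2 (-0.21, adjusted p 0.0470), limma voom, only the groups compared and without GNF-7 6 h replicate 2. HSPE1 was at -7.47e-04 without mitochondrially encoded genes, at -0.0050 with no filter and at -0.049 to 0.040 with 1 library left out. Leaving out 1 library, HSPB1 ranged from -0.293 to 0.174 and the summed HSPA1 genes from -0.224 to -0.158, the latter not called without DMSO 6 h replicate 3 (adjusted p 0.133) or DMSO 24 h replicate 2 (adjusted p 0.0853).

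Of 30 pairs of libraries that share a replicate number, 0 correlated above 0.1 in their deviations from the group means (range -0.037 to 0.058). Of 15 libraries, 8 matched best with a library of their own number. Sampling noise of single genes lowers such correlations, so they cannot show whether the numbers mark a shared batch. In each senescent group the mitochondrially encoded share was lowest in replicate 1 and highest in replicate 2, and in cycling cells the reverse. With the replicate block the count of all genes called was 7481 against 7286 with GNF-7 at 6 h and 11031 against 10940 at 24 h, and among members HSPD1 also passed in the difference (0.13). HSPB1, at 2 to 190 counts per library, is the member whose precision the depth limits.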
